A study of Mus musculus with 13 samples.

Results

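CTCF, its paralogue CTCFL and 8 genes that encode subunits, the loader and the regulators of cohesin were followed in RNA-seq counts of mouse embryonic stem (ES) cells with and without induction of a CTCF transgene. The genes were taken by symbol, without a filter on their values, but with earlier results of these data known. All 10 (Ctcf, Ctcfl, Rad21, Smc1a, Smc3, Stag1, Stag2, Nipbl, Pds5a and Pds5b) were found among the 24421 genes of each count table. The cells were F1-2.1, a female mouse ES line from a CAST/Ei x 129/Sv/Jae cross, kept on irradiated embryonic fibroblast feeders with LIF. All 4 RNA-seq libraries came from 1 clone of these cells, A2, selected with hygromycin for an integrated Tet-on transgene that encodes FLAG-tagged CTCF S224E together with EGFP, and the endogenous Ctcf gene was still present. In the +dox group (2 libraries) the clone was grown for 6 days with 1 μg/mL doxycycline (dox), the drug that switches the transgene on. In the −dox group (2 libraries) the same clone was grown without it. S224E replaces Ser224 by glutamic acid, a substitution used to imitate the charge of a phosphorylated serine, and the comparison asks whether RNA levels differ once this form of CTCF is made. Since both groups carry the transgene and no RNA library of cells given dox without it was analysed here, an effect of CTCF S224E and one of dox itself cannot be told apart.

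CTCF is a zinc-finger protein that binds DNA at insulators and at the borders of chromatin domains. Cohesin is a ring built from SMC1A, SMC3 and RAD21, to which either STAG1 or STAG2 is attached. NIPBL drives the loading of the ring onto chromatin and its extrusion of DNA loops, and PDS5A and PDS5B bind the ring and help to decide how long it stays there. Loops grow until cohesin meets bound CTCF, and the same ring holds sister chromatids together until mitosis. In ES cells CTCF and cohesin are needed for normal gene control and for division, while CTCFL, also called BORIS, is known mainly from the male germ line.

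The site of the substitution is shown because it is what sets the induced CTCF apart, and the promoters of Ctcf and Pds5a follow as examples of the CG-rich starts of these genes. In mm9, the Ser224 codon of Ctcf is a coding part of exon 3 on the plus strand, in an annotated transcript of 12 exons. In the 63 nt at chr8:108188302-108188364 the codon, which encodes serine, is in capitals.
Ctcf Ser224 codon: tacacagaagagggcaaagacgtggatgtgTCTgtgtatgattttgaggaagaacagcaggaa
The counts sum all exon reads of a gene, so they do not separate reads with this codon from reads with the substitution, and reads of transgene RNA that align to Ctcf are within the count of Ctcf. The coding sequence takes 2208 nt of the gene, whose counted exons span 3809 nt.

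A RefSeq promoter (GRCm38.p6) was found for 6 of the 10 genes: Ctcf, Smc1a, Smc3, Stag1, Pds5a and Pds5b. Each runs from 250 bases before an annotated transcript start to 50 after it. The upstream 250 bases are given below for Ctcf and for Pds5a, the gene with the largest difference below −dox cells among the 10. For Pds5a and Stag1 the 300 bases do not reach the start of the counted transcript. In mm9 those of Pds5a are chr5:66089426-66089725, and its counted transcript, on the minus strand, starts at 66089095. Those of Stag1 end at chr9:100543916, and its counted transcript, on the plus strand, starts at 100544042. Capitals mark the letters GGGCGG, the GC box that Sp1-type factors bind, or its reverse complement, and TTCCCGC, a form of the element that E2F factors bind at many cell cycle genes. In GRCm38.p6, the Ctcf sequence is chr8:105636288-105636537 on the plus strand, and the Pds5a sequence is chr5:65698237-65698486 on the minus strand.
Ctcf promoter: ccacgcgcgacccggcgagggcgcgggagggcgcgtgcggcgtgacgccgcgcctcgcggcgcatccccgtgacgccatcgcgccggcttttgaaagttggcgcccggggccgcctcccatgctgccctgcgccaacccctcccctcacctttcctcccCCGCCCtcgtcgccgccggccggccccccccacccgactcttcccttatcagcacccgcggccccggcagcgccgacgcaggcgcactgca
Pds5a promoter: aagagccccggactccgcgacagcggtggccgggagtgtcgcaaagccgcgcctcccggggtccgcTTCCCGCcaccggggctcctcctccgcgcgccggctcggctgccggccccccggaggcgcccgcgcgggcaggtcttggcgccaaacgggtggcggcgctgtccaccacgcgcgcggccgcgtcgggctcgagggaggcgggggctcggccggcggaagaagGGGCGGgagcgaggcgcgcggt
All 6 promoters were rich in CG pairs, with 47 in Ctcf, 55 in Pds5a, 43 in Stag1, 41 in Pds5b, 32 in Smc3 and 23 in Smc1a, against a median of 7 and an upper quartile of 20 over 32851 mouse promoters of the same length. Searched on both strands over these 300 bases, GGGCGG was present in 6 of 6, as it was in 35.7% of all promoters. TTCCCGC was present in 3 of 6, namely Smc1a, Stag1 and Pds5a, and in 4.6% of all promoters. The letters CCAAT were in 3 of 6 and in 37.4% of all, and TATAAA was in 0 of 6 and in 13.6% of all. The core of the CTCF binding motif was in 0 of 6 and in 2.4% of all promoters. Motifs were counted whether or not they overlapped another one. The shares are over all promoters, most of which have fewer CG pairs than these 6. Promoters with as many CG pairs were not compared, so no excess of a motif is shown.

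Counted reads per library ran from 22899107 to 30206085, and 20044 genes had at least 1 read in at least 1 library. Identity of the cells was checked with fixed marker lists: all 8 ES cell markers, such as Pou5f1 and Nanog, were detected, with a summed level, in reads scaled to a library of 1000000 reads (CPM), of 5232 and 6070 for +dox cells and 4732 and 5220 for −dox cells. Reads of fibroblast markers, listed to trace the feeders, were present as well, and which cells they came from was not tested. All 14 fibroblast markers, such as Col1a1 and Thy1, had reads, and their summed level was 1018 and 412 CPM in replicates 1 and 2 with dox and 331 and 337 CPM without, so that replicate 1 with dox stood apart. Whether feeder RNA has a part in the differences given next was not tested. As these are mixed cells in bulk, fewer cells of a type and less RNA per cell cannot be told apart. The methods call the pairs of libraries biological replicates and say no more, so p-values measure the spread between these libraries, which may be partly technical.

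Transcript levels of the 10 genes were first compared per length, as CPM per kb of counted exon, since longer transcripts collect more reads. The length was that of 1 listed transcript per gene. Other annotated forms were not compared, so levels of different genes also depend on this choice. Smc1a, which encodes an ATPase arm of the ring, had the highest level, with a mean over the 4 libraries of 112. Rad21, the subunit that closes the ring, followed at 92.6 and Ctcf at 82.4. Next came Smc3, the other ATPase arm, at 61.6, and Pds5a at 48.2. The accessory subunits and the loader were lower, with Stag1 at 23.1, Nipbl at 18.8, Stag2 at 17.9 and Pds5b at 17.5. Ctcfl was last at 1.56. The median of the 13911 genes that averaged 1 CPM or more was 10.2 on this scale, so all members but Ctcfl were above it, and Smc1a, Rad21 and Ctcf lay at percentiles 95.2, 93.4 and 92.2. Ctcfl lay at percentile 15.5. The ranges over libraries of neighbours in this order overlapped for Rad21 and Ctcf, for Nipbl and Stag2 and for Stag2 and Pds5b, whose order is therefore not resolved, while the other neighbours did not overlap. The core subunits of 1 ring were not at equal RNA levels: Rad21 was at 1.55, 1.42, 1.45 and 1.59 times Smc3 per kb, and Smc3 at 0.531, 0.516, 0.569 and 0.583 times Smc1a, in replicates 1 and 2 with dox and then replicates 1 and 2 without.

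**Figure D1:**
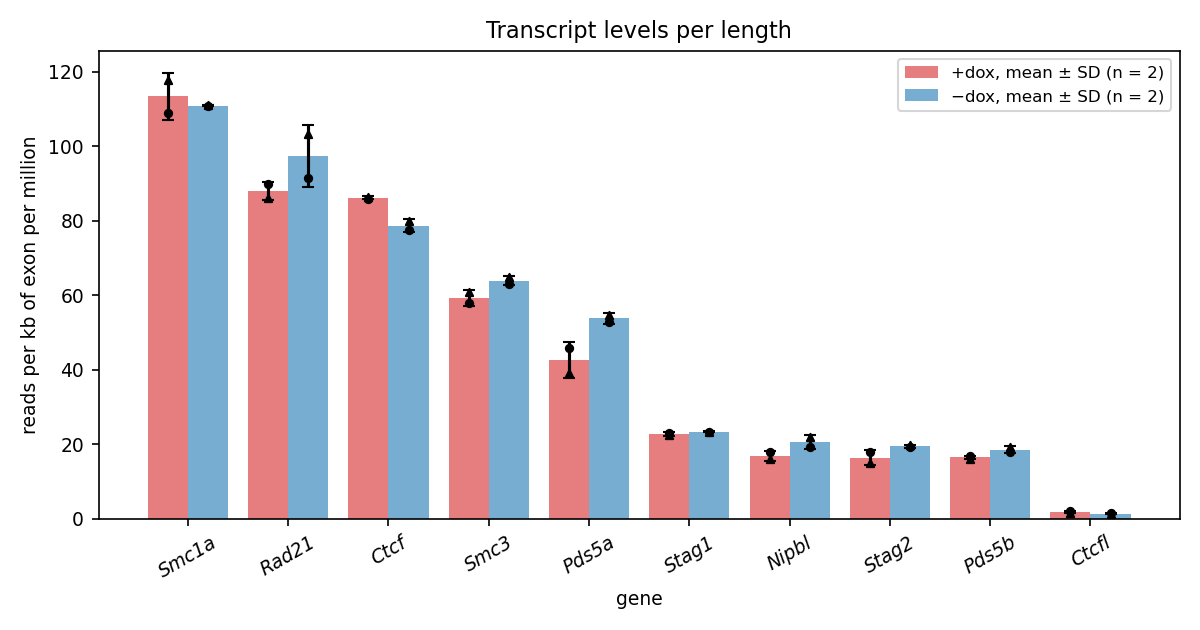
Transcript level (CPM per kb of counted exon) of the 10 genes in order of their mean; bars are the +dox and −dox means, error bars the SD over 2 libraries, and points the libraries (circle, replicate 1; triangle, replicate 2). Smc1a stands highest at 112 and Ctcfl lowest at 1.56.

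Ctcf (chr8:108160438-108206822 of mm9, plus strand) differed little between the groups. With the counts scaled to CPM by TMM, it stood at 327 and 329 CPM with dox and at 295 and 304 CPM without. Both +dox values were above both −dox values, and the mean was 328 ± 1.56 CPM (SD, n = 2) with dox and 300 ± 6.44 without. The difference of 9.48% had a 95% interval from −3.71% to 24.5% (log2 fold change 0.13, SE 0.09; adjusted p = 0.475, edgeR's quasi-likelihood test with Benjamini-Hochberg adjustment over all genes). This is also the check of the induced gene: a difference of more than 24.5% in the summed Ctcf reads lay outside the interval. The count of Ctcf says nothing about the share of transgene RNA in it.

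Ctcfl (chr2:172919110-172945026, minus strand) was measured with few reads, 137 and 117 with dox and 142 and 102 without. Scaled to depth these were 6.09 and 5.12 CPM with dox and 4.65 and 4.06 CPM without. The exact Poisson intervals, which cover counting error only, were 5.11 to 7.19, 4.24 to 6.14, 3.92 to 5.48 and 3.31 to 4.93 in the same order, so each +dox interval overlapped at least 1 −dox interval although the values themselves were apart. At 0.36 the log2 fold change had the widest interval of the 10 genes, −0.15 to 0.88 (adjusted p = 0.476). The position and sequence of the gene limit this value further. Its exons overlap those of an antisense gene, 1300015D01Rik, and whether the counting used the strand is not stated. In addition, 3.50% of its 50-base words also occur in other coding genes, against 0 in each of the other 9 members. Of 8 male germ line markers 6 were detected, with Prm1 and Tnp1 at 0 in all libraries, and their summed level was 72.5 and 82.6 CPM with dox and 69.4 and 88.2 without.

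For the ring itself the values of the groups were close. Smc1a (chrX:148450971-148496516, plus strand) had 430 and 464 CPM with dox and 437 and 438 CPM without, the only member whose groups overlapped. Smc3 (chr19:53674886-53720321, plus strand) stood at 279 and 293 CPM with dox and 304 and 312 without. Rad21 (chr15:51794150-51823306, minus strand) had 322 and 309 CPM with dox and 328 and 371 without, and its −dox libraries were further apart from each other than +dox replicate 1 was from −dox replicate 1. The log2 fold changes were 0.03 (95% interval −0.15 to 0.22) for Smc1a, −0.11 (−0.30 to 0.08) for Smc3 and −0.15 (−0.35 to 0.06) for Rad21, with adjusted p-values of 0.882, 0.589 and 0.459 in edgeR's quasi-likelihood test.

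The STAG paralogues, which mark alternative forms of the complex, differed in how far apart their groups were. Stag1 (chr9:100544042-100858963, plus strand) had 138 and 134 CPM with dox and 139 and 140 without. The groups were apart by less than the +dox libraries from each other, with a log2 fold change of −0.04 (−0.24 to 0.16; adjusted p = 0.861). Stag2 (chrX:39502589-39630363, plus strand) had 106 and 88.6 CPM with dox and 114 and 116 without, and both +dox values lay below both −dox values. Its log2 fold change was −0.24 (−0.48 to −0.01), a difference of −15.6%, with an unadjusted p of 0.0444 and an adjusted p of 0.264 in edgeR's quasi-likelihood test.

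The members furthest below −dox cells were Pds5a and Nipbl. Nipbl, the loader (chr15:8239824-8394463, minus strand), had 191 and 171 CPM with dox, against 207 and 235 CPM without. Pds5a (chr5:66006499-66089095, minus strand) had 189 and 161 CPM with dox and 217 and 225 without. Pds5b, its paralogue (chr5:151476402-151613245, plus strand), had 122 and 117 CPM with dox and 130 and 139 without. In each of these genes both +dox libraries were below both −dox libraries. Nipbl differed by −18.0% (−29.6% to −4.57%; log2 fold change −0.29, SE 0.10) with an unadjusted p of 0.0145 and an adjusted p of 0.149 in edgeR's quasi-likelihood test. Pds5a differed by −20.8% (−31.9% to −7.94%; log2 fold change −0.34, SE 0.10) with an unadjusted p of 0.00543 and an adjusted p of 0.0951, and DESeq2 gave it an adjusted p of 0.0730. For Pds5b the log2 fold change was −0.17 (−0.38 to 0.04) and the adjusted p 0.40.

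**Figure D2:**
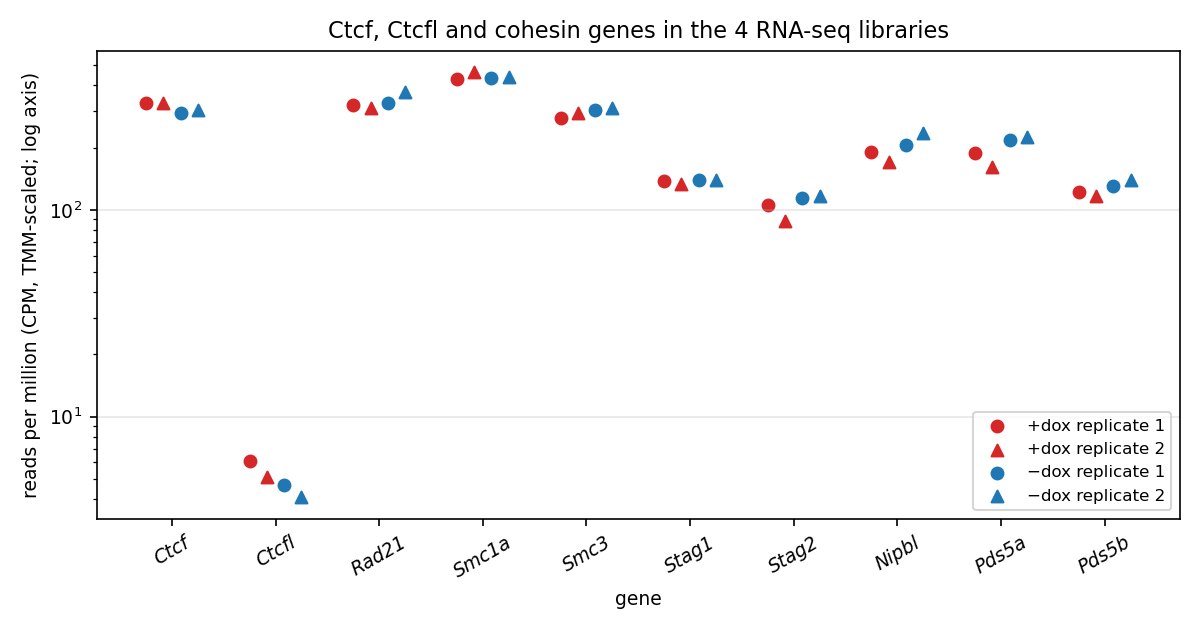
CPM (TMM-scaled, log axis) of the 10 genes in each of the 4 libraries, red for +dox and blue for −dox, circles for replicate 1 and triangles for replicate 2. Rad21, Smc3, Stag1, Stag2, Nipbl, Pds5a and Pds5b have both red points below both blue points. Ctcf and Ctcfl have both red points above, and the points of Smc1a are mixed. Among the 13911 genes that averaged 1 CPM or more, 27.7% lay apart in this way below and 26.1% above.

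None of the 10 genes passed the threshold of an adjusted p under 0.01. The same test called 120 of 20044 genes, 16 higher and 104 lower with dox, which is 0.599%, a share beside which 0 of 10 says little about the members. DESeq2 called 0 of the 10 as well, against 1.87% of all genes. At an unadjusted p under 0.05 there were 3 of 10 (Stag2, Nipbl and Pds5a), all lower, against 17.8% of all genes in either direction and 9.31% lower. The groups did not overlap in 9 of 10 members, 7 of them lower with dox and 2 higher, and this was so in 53.8% of the 13911 genes that averaged 1 CPM or more (27.7% lower, 26.1% higher). The median log2 fold change of the 10 genes was −0.13, with 7 of 10 below 0, beside −0.00 and 50.2% below 0 over those 13911 genes, and their summed level was 2109 and 2073 CPM with dox and 2175 and 2284 without. For the 9 genes other than Ctcfl, which had between 2022 and 13338 reads in each library, the intervals of the fold reached from 0.681 at the lowest to 1.24 at the highest. With 2 libraries per group, a p above the threshold does not show that a gene was unaffected.

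Replicates 1 and 2 gave unequal differences. Within replicate 1, comparing 1 +dox with 1 −dox library, the median of the members was −0.06, and within replicate 2 it was −0.17. In replicates 1 and 2 Pds5a had −0.20 and −0.48, Nipbl −0.11 and −0.46, Stag2 −0.10 and −0.39, Rad21 −0.03 and −0.26 and Pds5b −0.09 and −0.25. Smc3 had −0.13 and −0.09, and so was the 1 gene of the 7 lower ones that was not further below 0 in replicate 2. Ctcf had 0.15 and 0.11, and Ctcfl 0.38 and 0.33. In all, 7 members were below 0 in both replicates, 2 were above 0 in both, and Smc1a was at −0.02 and 0.08. The share of all genes with the same sign in both replicates was not computed, so these counts have nothing to be set against. The feeder markers had a median log2 fold change of 1.75 in replicate 1 and 0.42 in replicate 2. Whether this is related to the unequal differences of the members was not tested. Without +dox replicate 1, the library with the most feeder RNA, Pds5a was the only member past the threshold, at a log2 fold change of −0.46 and an adjusted p of 0.00613 in edgeR's test, in a fit that called 5.07% of all genes and took the lone +dox library to vary like the others. With the other libraries left out in turn 0 of 10 were called.

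**Figure D3:**
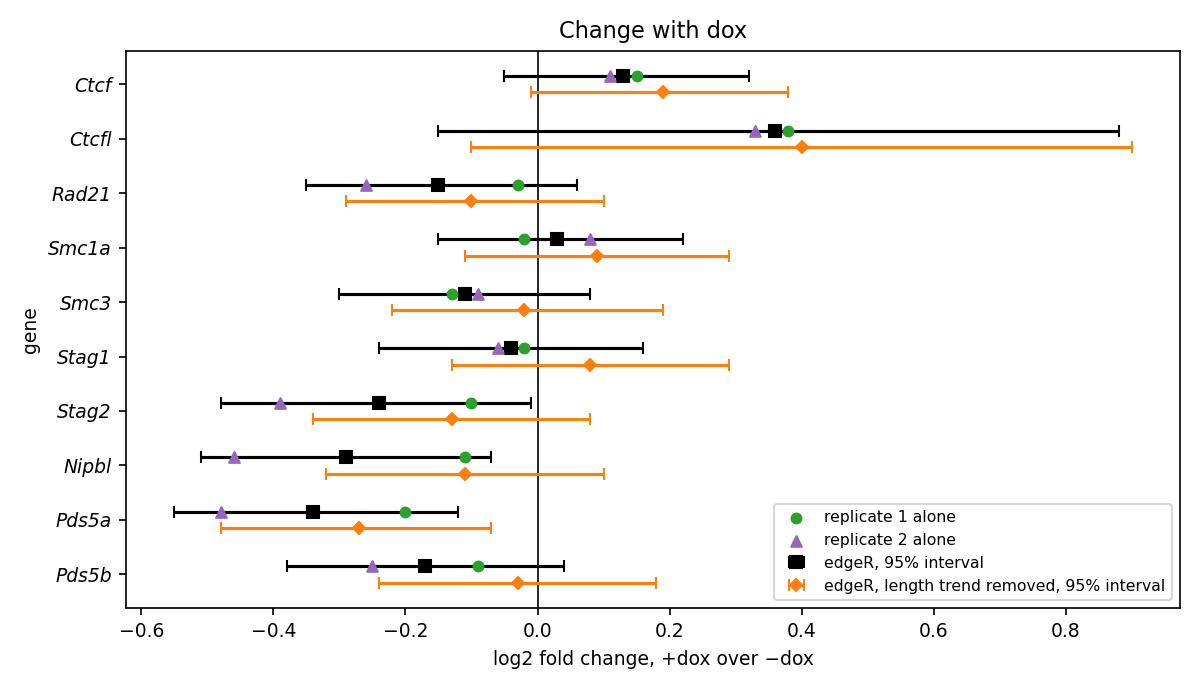
Log2 fold change (+dox over −dox) of each gene, as black squares for edgeR with 95% intervals, orange diamonds with 95% intervals after the trend with transcript length was removed, and green and purple points for replicates 1 and 2 alone. The black intervals of Stag2, Nipbl and Pds5a leave out 0, and with the length trend removed that of Pds5a alone does, at −0.27.

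Transcript length moved with these differences. Among the 13911 genes the median log2 fold change went from 0.13 in genes with up to 1000 nt of counted exon to −0.16 in those over 8000 nt, and the slope was mostly that of replicate 2, from 0.19 to −0.31, against 0.05 to −0.05 in replicate 1. Several members are long: Nipbl has 10714 nt, Pds5b 7272, Stag1 5974 and Stag2 5931, while Ctcf, Ctcfl, Rad21 and Smc1a have between 3204 and 3943 nt. The median of the class was −0.16 for Nipbl, −0.14 for Pds5b, −0.09 for Stag1 and Stag2, −0.05 for Smc3 and Pds5a and −0.02 for the remaining 4 genes. When the trend with length was removed from each library, a correction added after seeing the data, the difference of Nipbl became −0.11, that of Stag2 −0.13, that of Pds5b −0.03 and that of Smc3 −0.02, and Stag1 turned to 0.08. Pds5a kept −0.27 (−0.48 to −0.07), with an adjusted p of 0.113 in edgeR's test, and Ctcf stood at 0.19 (−0.01 to 0.38). The median of the 10 genes was then −0.02, beside 0.03 over all genes. The medians of the chromosomes that carry the members lay between −0.03 and 0.03.

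**Figure D4:**
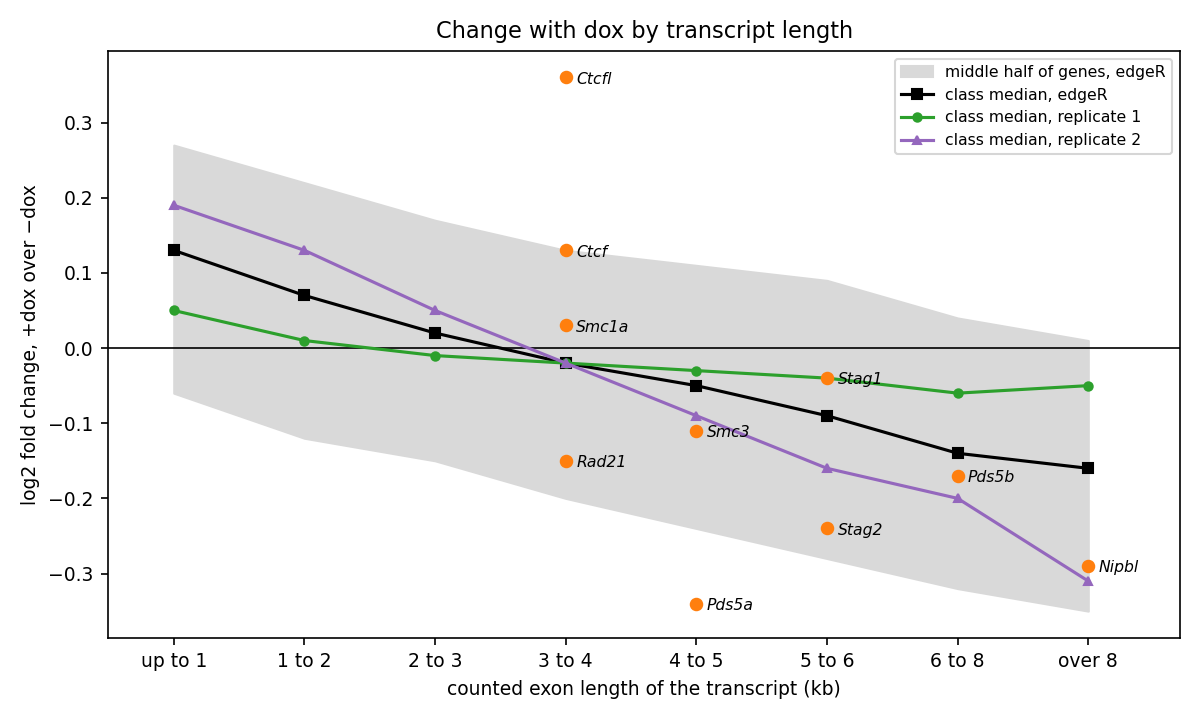
Median log2 fold change (+dox over −dox) by counted exon length in kb, for edgeR (black, with the range from the first to the third quartile in gray) and for replicates 1 (green) and 2 (purple) alone, with the 10 genes as orange points in their length class. The black line goes from 0.13 to −0.16, Ctcfl lies above and Pds5a below the gray range of its class, and Ctcf at 0.13 lies at its upper edge.

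Ratios of paralogues and of partners within a library do not depend on how libraries are scaled, and 6 were set out. They do depend on the trend with length where the genes differ in length, and were not computed with it removed. With that trend removed, the log2 fold changes of single genes were −0.11 for Nipbl and −0.10 for Rad21, which were then closer together. Those of Pds5b and Pds5a, at −0.03 and −0.27, were then further apart. Stag2 per kb was 0.773 and 0.666 times Stag1 in the +dox libraries and 0.821 and 0.839 times in the −dox libraries, a log2 difference of −0.21. Pds5b was 0.365 and 0.411 times Pds5a with dox and 0.338 and 0.350 without, a log2 difference of 0.17. In both pairs the +dox and −dox ratios did not overlap. Ctcf was 0.957 and 1.00 times Rad21 with dox and 0.848 and 0.774 without, a log2 difference of 0.27, the largest of the 6. Nipbl was 0.199 and 0.185 times Rad21 with dox and 0.211 and 0.212 without, and for this ratio and for that of Smc3 to Smc1a the log2 difference was −0.14. The ratio of Rad21 to Smc3 overlapped between the groups. With 6 ways to label 4 libraries, the exact permutation test (two-sided) cannot give a p under 0.333, which it gave for 5 of the ratios, and it gave 0.667 for Rad21 to Smc3. Adjusted over the 6 these were 0.40 and 0.667. By replicate, the log2 difference of Ctcf to Rad21 was 0.17 and 0.37 and that of Stag2 to Stag1 −0.09 and −0.33.

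In 5 lists of other genes of chromosome structure edgeR called 0 genes, while DESeq2 called 1, Smc1b of meiotic cohesin. The shares of all genes called were 0.599% by edgeR and 1.87% by DESeq2. The counts of each list stand beside 17.8% of all genes at an unadjusted p under 0.05 in edgeR's test. Of the genes that averaged 1 CPM or more, 50.2% were below 0. Cohesin regulators beyond the members (12 genes) had a median log2 fold change of −0.10, with 7 below 0 and 1 at an unadjusted p under 0.05, the release factor gene Wapl at −0.21 (adjusted p = 0.263, edgeR; named after its value was seen). The largest differences were those of Esco1, which acetylates SMC3, at −0.30 (adjusted p = 0.334, edgeR), and of Sgol2a, which protects centromeric cohesin in division, at −0.22 (adjusted p = 0.411). Condensin (8 genes), the related complex that compacts mitotic chromosomes, had a median of −0.14 with 7 of 8 below 0 and 2 at an unadjusted p under 0.05. Its members furthest from 0 were Ncapg2, a condensin II subunit, at −0.41 (adjusted p = 0.0689), and Ncapg, its condensin I counterpart, at −0.24 (adjusted p = 0.253). With the length trend removed the medians of these 2 lists were −0.07 and −0.05.

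The SMC5/6 complex, which acts in DNA repair, had 7 genes, 6 of them at 1 CPM or more, with a median of 0.02. Smc5 was at −0.35 (adjusted p = 0.0947, edgeR) and was the 1 gene at an unadjusted p under 0.05, and Nsmce2, a SUMO ligase, was at 0.19 (adjusted p = 0.458). Architectural and CTCF partner proteins (12 genes) had a median of −0.04, with 3 at an unadjusted p under 0.05. For this list and the SMC5/6 complex too, the share over all genes was 17.8%. Zbtb33, which encodes the DNA-binding protein Kaiso, was at −0.48 (adjusted p = 0.140) and Top2b, the topoisomerase found at loop anchors, at −0.36 (adjusted p = 0.0847). Npm1, the nucleolar protein that binds CTCF, was the third at an unadjusted p under 0.05 and the 1 above 0, at 0.29 (adjusted p = 0.139).

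Meiotic cohesin had 4 genes, 3 of them at 1 CPM or more. Smc1b, the germ line counterpart of Smc1a, had 360 and 342 reads with dox and 699 and 752 without, which is 16.0 and 15.0 CPM against 22.9 and 30.0 CPM. Both +dox values were below both −dox values, with a log2 fold change of −0.77 (SE 0.17), −0.52 and −1.0 in replicates 1 and 2. It did not pass the threshold in edgeR's test, with an adjusted p of 0.0354, and passed it in DESeq2, with 0.00740. This was the largest difference in either direction among the members and the 5 chromosome structure lists at 1 CPM or more. Rec8, the counterpart of Rad21, had 13.1 and 13.8 CPM with dox and 18.3 and 13.7 without, where 1 −dox library was high (log2 fold change −0.25). Stag3, the counterpart of Stag1 and Stag2, had 43.4 CPM in both libraries with dox and 37.8 and 36.7 CPM without, above 0 at 0.22 (adjusted p = 0.394). Rad21l had 2 and 1 reads with dox and 6 and 5 without, too few for a fold.

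**Figure D5:**
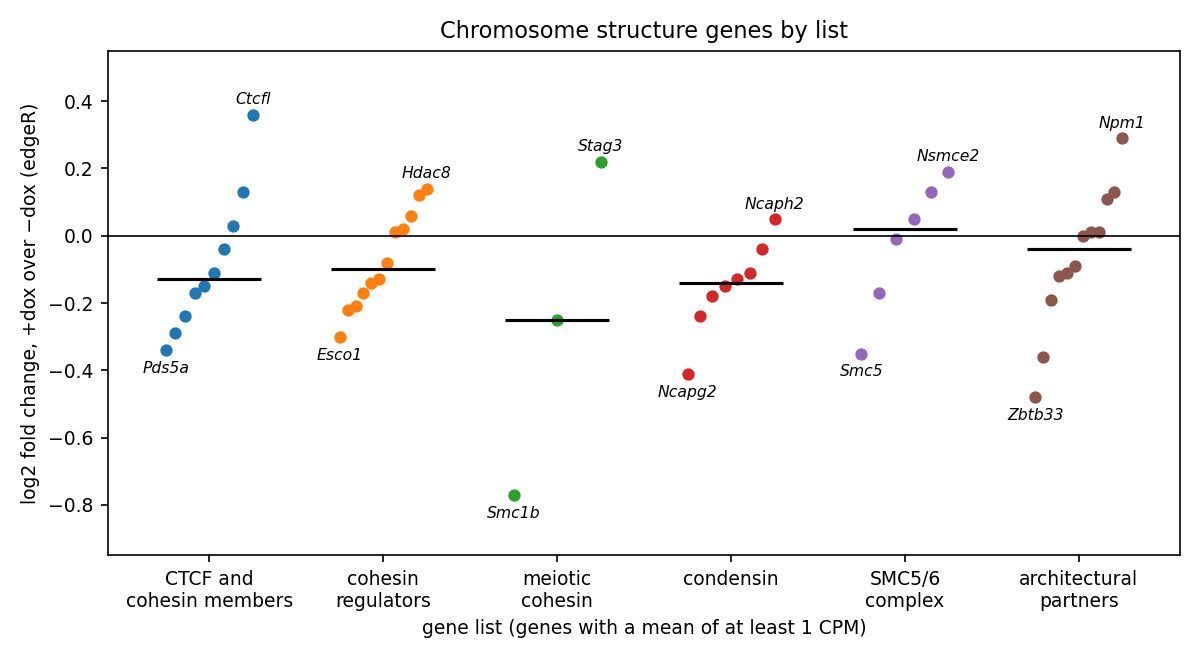
Log2 fold change (+dox over −dox, edgeR) of the genes of each list that averaged 1 CPM or more, one point per gene, with the list median as a black line and the outermost genes named. Smc1b at −0.77 lies lowest, followed by Zbtb33 at −0.48, and Ctcfl at 0.36 lies highest.

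Around Ctcf, 18 genes that averaged 1 CPM or more lie within 250 kb by the coordinates in the tables. Of these 0 were called by edgeR or by DESeq2, 7 were above 0, and the median log2 fold change was −0.07, in a range from −0.62 to 0.67. The nearest upstream were Fam65a at −0.10 and Atp6v0d1, a proton pump subunit, at −0.06. The nearest downstream were Rltpr at −0.43 (adjusted p = 0.276) and Acd, a telomere protein, at 0.25 (adjusted p = 0.396). An unadjusted p under 0.05 in edgeR's test was found for 4 of the 18, beside 17.8% of all genes tested. They were Rltpr, Tppp3 at −0.62, Cenpt at 0.33 and Nutf2 at 0.67, of which the last 3 are named after their values were seen. Ctcf at 0.13 was thus inside the range of its neighbours.

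Likeness to Ctcf was measured as the Euclidean distance between log2 CPM values centred on their mean over the 4 libraries, among 9969 genes that averaged 10 CPM or more. The closest were Fam172a at 0.01 and Tmem57 and Git2 at 0.02, and 617 genes were within 0.1, so with 4 libraries a pattern like that of Ctcf was common. The cohesin genes were further away, from 0.13 for Smc1a, 0.18 for Stag1, 0.24 for Smc3 and 0.29 for Rad21 to 0.31 for Pds5b, 0.42 for Stag2, 0.44 for Nipbl and 0.50 for Pds5a. All of the members other than Ctcfl, which was below 10 CPM, thus had more than 617 genes closer to Ctcf than they were.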

How the data were processed

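Polyadenylated RNA of 2 +dox and 2 −dox cultures was sequenced as 50-nt paired ends from a directional kit. The authors used cutadapt for trimming and TopHat2 for alignment to mm9, discarded PCR duplicates, and deposited raw counts of unique exon reads per gene from HOMER, 1 table per replicate; versions, and whether strand was used, are not given in the sources used here. Duplicate removal may cap counts of highly expressed genes. Here the tables were joined by symbol (547 genes, none of them among the 10, list different transcripts), and samples were grouped by their titles.

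Genes with at least 1 read were fitted with edgeR 4.0.16 (R 4.3.3; TMM, quasi-likelihood test, defaults), and p-values were Benjamini-Hochberg adjusted over 20044 genes with a threshold of 0.01. Alternatives were DESeq2 1.42.0, its size factors, total counts, filterByExpr, no filter, adjusted deviances, a replicate block, each library left out and, added after seeing the data, removal of the per-library length trend (loess, span 0.5). Replicate-wise values use a prior count of 2. Scripts were tested on simulated data. Intervals cover 95%; those of edgeR come from its standard errors. Same-numbered libraries were deposited together, and the sources used here give nothing else that they share.

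The members and lists were chosen with earlier results of these data known. Named were all members, list genes past the threshold or else the 2 per list with the largest absolute log2 fold change (all of meiotic cohesin), the 2 nearest genes on each side of Ctcf, and the 3 genes most like Ctcf.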

Additional observations from a re-analysis of the deposited data

How the results depend on the processing

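Of 130 values of members under alternatives, 126 kept their sign and their side of the threshold. Smc1a turned to −0.01 with total counts as scaling and ranged from −0.03 to 0.09 with single libraries left out, and Stag1 turned to 0.08 with the length trend removed. With single libraries left out, the log2 fold changes of Pds5a went from −0.46 to −0.23. Without +dox replicate 1 Pds5a changed its side of the threshold, in a fit with a lone +dox library. The number of genes called over all genes, 120 in edgeR's test, depended most on the setting: 375 (118 higher, 257 lower) with DESeq2, 0 with adjusted deviances, 11 (0 and 11) with filterByExpr, 398 (166 and 232) with the length trend removed, 573 (186 and 387) at an adjusted p under 0.05, and 0 to 992 with single libraries left out. With the replicate block 786 genes (316 and 470) were called by edgeR and 264 (94 and 170) by DESeq2, 0 of the members among them; same-numbered libraries deviated from their group means with a correlation of 0.196, and with 2 pairs this does not show a pairing. Smc1b of meiotic cohesin was called, as 1 gene, with DESeq2, with the edgeR replicate block, at an adjusted p under 0.05 and without either +dox library, a range of 0 to 1 over libraries left out; condensin had 0 to 1 genes called likewise (Ncapg2 without +dox replicate 1). The median log2 fold change of cohesin regulators was −0.07 with the length trend removed and −0.15 with total counts, and from −0.10 to −0.05 with libraries left out. That of condensin was −0.05 with the length trend removed and from −0.21 to −0.10 with libraries left out, and that of architectural partners −0.09 with total counts. The cause of these shifts was not tested.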
